A study of Rattus norvegicus with 12 samples.

Results

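The genes that copy DNA and supply its building blocks were followed in a pair of rat liver epithelial cell lines exposed to rapamycin. They were taken from a list of 52 genes of DNA replication, grouped by the step at which each acts, and a gene was measured where a probe set of the array carried its symbol alone. This held for 48 genes with 66 probe sets, out of 14217 genes with a single symbol on the array. Cdc6, which loads the replicative helicase, Cdc7, the kinase that fires origins, Gins2, a helicase subunit, and Rrm2, the small subunit of ribonucleotide reductase, had no probe set with their symbol alone and have no value here. Where a gene had several probe sets, the brightest stands for it.

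Rapamycin inhibits the growth-regulating kinase complex mTORC1, and the study asked how its effect on gene expression differs between hepatic lines that differ in sensitivity to it. WB311 cells, which are tumorigenic and arose spontaneously from WB-F344, and WB-F344 cells, which are diploid, non-tumorigenic and came from the liver of an adult male Fischer rat, were each treated with rapamycin at 50 nM or with the vehicle DMSO for 24 hr, in medium with fetal bovine serum. The labels call WB311 resistant to rapamycin with a doubling time of 15.5 hr, and WB-F344 sensitive with a doubling time of 42 hr. Each of the 4 groups (WB311 with rapamycin, WB311 with vehicle, WB-F344 with rapamycin and WB-F344 with vehicle) had 3 plates, each on its own Affymetrix Rat Genome 230 2.0 array. Each line is a single line, and nothing states that the plates came from separate cultures, so p-values measure only the spread between plates, which may be technical.

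Values are normalized intensities on a linear scale, with a median per array of 59.5 to 62.9, and differences are given as log2 with the standard error (SE). Genes with a mean intensity of 100 or more in some group of a comparison were tested in it. A gene is said to have passed, or to be called, where limma gave a p under 0.05 after Benjamini-Hochberg adjustment over all tested probe sets together with a fold change of 1.2 or more. All 48 genes averaged at least 100 in every group. The WB-F344 plates numbered 2 stood apart, the log2 signal of beta-actin's 3′ probe set exceeding that of its 5′ probe set by 0.62 with rapamycin and 1.04 with vehicle, against 0.21 to 0.49 on the other 10 arrays, and counts are also given without both. Of the markers of hepatocytes 1 of 7 (Ttr) reached an intensity of 100 in any group, so albumin (Alb) and most other hepatocyte markers stayed below that level, while 6 of 7 markers of biliary and progenitor cells, 6 of 8 of mesenchymal cells, 1 of 4 of endothelial cells (Tek) and 1 of 6 of leukocytes (Cd14) did. The summed mesenchymal markers lay at 12720 to 13370 in WB311 with rapamycin and 13200 to 13490 with vehicle, and at 41400 to 46730 in WB-F344 with rapamycin and 44730 to 52620 with vehicle.

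Replication is prepared in G1, when the origin recognition complex (Orc1 to Orc6) and Cdt1 place the ring-shaped Mcm2 to Mcm7 helicase on DNA, and Gmnn (geminin) holds Cdt1 back from doing so again within the same cycle. In S phase Cdc45 and the GINS complex turn the ring into the active helicase, polymerases α, δ and ε copy the strands behind it, and the sliding clamp Pcna, loaded by the Rfc complex, tethers the polymerases. Ribonucleotide reductase, thymidylate synthase and thymidine kinase supply deoxynucleotides, and CAF-1 and Asf1 rebuild chromatin on the new strands. Many of these genes are switched on together at the G1/S boundary by E2F transcription factors. In a bulk sample, fewer cells in S phase and less RNA per cell cannot be told apart.

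In WB-F344 cells, genes of every step were lower with rapamycin. Of the 48 genes, 43 fell and 0 rose, against 17.2% of all tested genes that fell and 7.71% that rose. The main fit also draws each gene's spread from the WB311 arrays. With limma on only the 2 WB-F344 groups, 9.64% of all tested genes fell and 4.8% rose. The methods' t-test uses only these 2 groups and does not share the estimate of the spread between genes. It called 27 of the 48 genes lower and 0 higher, against 6.55% and 3.13% of all tested genes. The genes overlap with a replication list already known to fall on these arrays, so the count is not independent evidence. The median log2 difference over the 48 genes was -0.48, against -0.07 over all genes tested, and the median gene kept 71.6% of its vehicle level. The rapamycin plates all lay below the vehicle plates for 43 genes and above them for 1, Orc4, against 26.5% and 12.7% of all tested genes. The count was again 43 without both plates numbered 2, where 20.5% of all tested genes fell. Of the 43 calls, 37 were kept without any 1 plate. The summed leukocyte markers moved as well, at 1135 to 1385 in WB-F344 with rapamycin and 635 to 762 with vehicle, of which Cd14 was the only marker of 6 over an intensity of 100. Of 4 tested markers of biliary and progenitor cells, Spp1 rose by 1.86, while Cd24 fell by 0.89 and Krt8 fell by 0.37, and the summed level of all 7 was 8226 to 8876 with rapamycin and 8497 to 10050 with vehicle. In WB311, of 5 tested markers of biliary and progenitor cells, 1 was called lower and 1 higher with rapamycin (-0.51 to 0.89). The part of all these markers in the result was not tested.

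**Figure D1:**
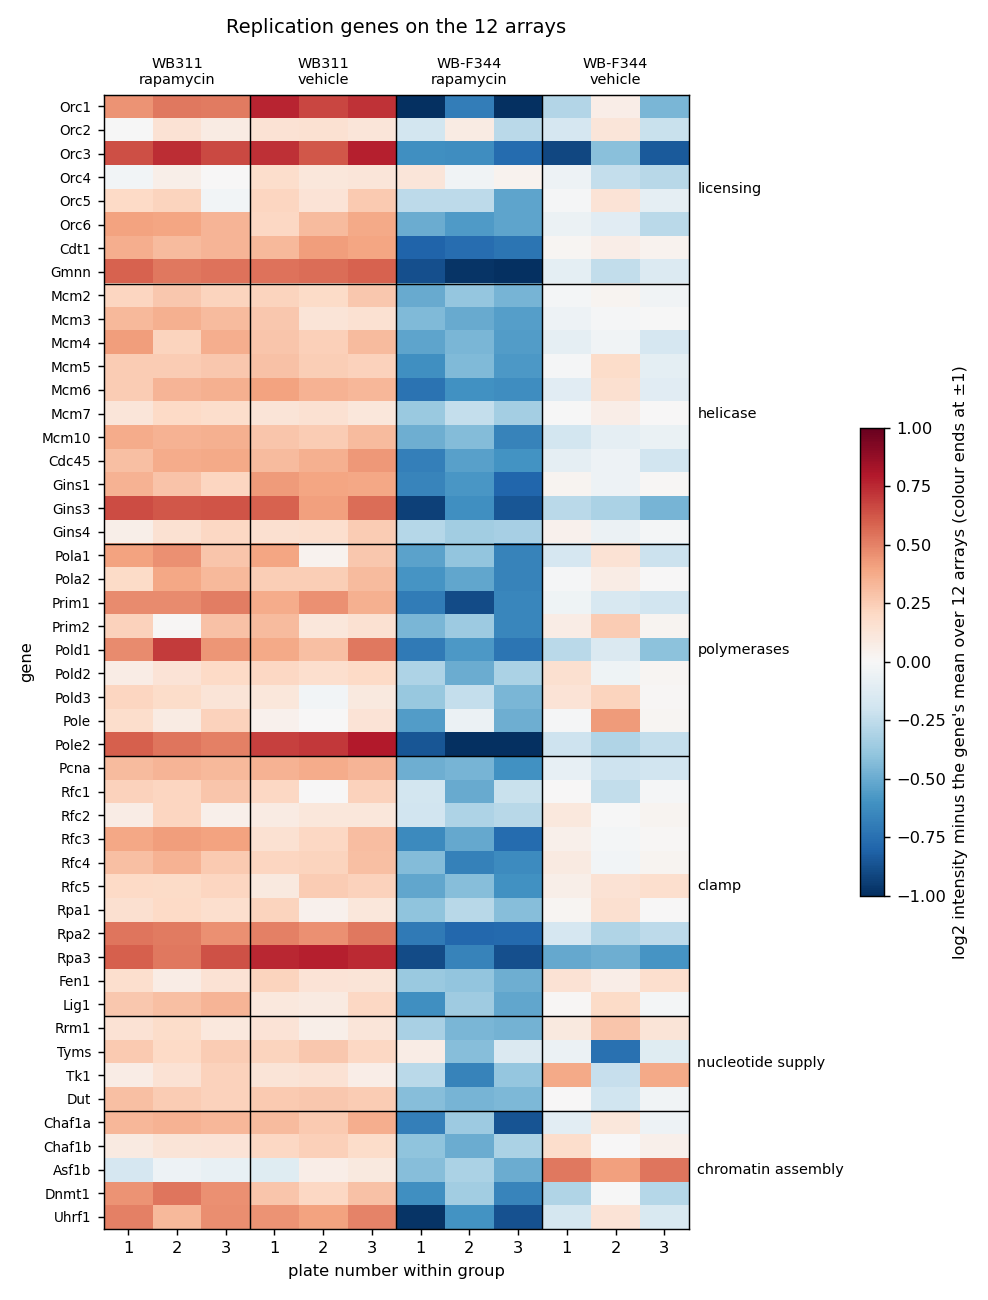
Log2 intensity of each of the 48 genes (down the page, by step) on the 12 arrays (across, by group and plate number), minus the gene's own mean over the 12 arrays, with red above and blue below that mean. The 3 WB-F344 arrays with rapamycin are the lowest for nearly every gene, while the 6 WB311 arrays look alike.

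The licensing genes split. Cdt1, the loader of the helicase, stood at 444, 457 and 466 in WB-F344 with rapamycin, against 784, 809 and 792 with vehicle, and fell by 0.80 on the log2 scale (SE 0.05, adjusted p = 4.83e-06 from limma). Its inhibitor Gmnn stood at 541, 506 and 496 with rapamycin, against 930.2, 842 and 905 with vehicle, and fell by 0.80 as well (SE 0.06, adjusted p = 1.1e-05). Both genes, which act against each other on the same step, lost a similar share of their level, and for neither did the treatments overlap.

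Orc1, the subunit of the origin recognition complex whose protein is removed as S phase begins in human cells, stood at 96.0, 129.8 and 94.6 with rapamycin, against 172, 220.2 and 153.5 with vehicle, and fell by 0.77 (SE 0.14, adjusted p = 0.00232). Of the other subunits, Orc5 fell by 0.36 and Orc6 by 0.38, Orc5 not without rapamycin plate 3 (-0.27, adjusted p = 0.071). Orc2 and Orc3 had log2 differences of -0.03 and 0.06, with 95% intervals of -0.26 to 0.20 and -0.20 to 0.31, and their plates overlapped between treatments. Orc4 ran the other way, at 718, 643 and 676 with rapamycin, against 637, 557 and 545 with vehicle. Its log2 difference of 0.23 (SE 0.07, adjusted p = 0.033) was under the fold threshold, and it passed without vehicle plate 1 (0.30) or rapamycin plate 2 (0.27), while its other probe set gave 0.02.

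All 11 measured helicase genes fell. The ring subunits Mcm2 to Mcm7 kept between 64.4% and 79.0% of their vehicle level. Mcm6, the subunit that lost most, stood at 1060, 1159 and 1150 with rapamycin, against 1634, 1977 and 1634 with vehicle, and fell by 0.63 (SE 0.08, adjusted p = 0.000246). Mcm7, the subunit that lost least, stood at 3002, 3293 and 3080 with rapamycin, against 3888, 4069 and 3903 with vehicle, and fell by 0.34 (SE 0.05, adjusted p = 0.00104). The fall was thus moderate but shared by the whole ring, with Mcm2 at -0.44, Mcm3 at -0.48, Mcm4 at -0.42 and Mcm5 at -0.57.

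Of the factors that activate the ring, Gins1 stood at 258, 273 and 236 with rapamycin, against 418, 394 and 412 with vehicle, and fell by 0.67 (SE 0.06, adjusted p = 4.75e-05). Cdc45, its partner in the active helicase, fell by 0.50, and Gins3 and Gins4 by 0.45 and 0.31. Mcm10, which helps to start unwinding, fell by 0.42. In none of these genes did a rapamycin plate reach a vehicle plate.

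All 9 polymerase genes fell. Pole2, a subunit of the leading-strand polymerase ε, stood at 276, 241 and 222 with rapamycin, against 432, 406 and 424 with vehicle, and fell by 0.78 (SE 0.08, adjusted p = 6.45e-05). The 4 subunits of polymerase α, which lays down the RNA-DNA primers, moved by similar amounts, with Prim1 at -0.62, Pola2 at -0.62, Prim2 at -0.61 and Pola1 at -0.45. The subunits of polymerase δ, which copies the lagging strand, fell as well, with Pold1 at -0.39, Pold2 at -0.42 and Pold3 at -0.48. Pole, the catalytic subunit of polymerase ε, had a high plate 2 in each treatment, with 204, 288 and 214 with rapamycin and 298, 404 and 304 with vehicle. Its fall of 0.51 (SE 0.14, adjusted p = 0.0205) was lost without rapamycin plate 1 (-0.42, adjusted p = 0.0788) or plate 3 (-0.45, adjusted p = 0.0773), and that of Pola1 without rapamycin plate 3 (-0.38, adjusted p = 0.0701).

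Among the clamp and the factors that work with it, 10 of 11 fell. The largest falls were in subunits of the clamp loader, with Rfc3 at 363, 395 and 331 with rapamycin, against 585, 555 and 567 with vehicle, a fall of 0.65 (SE 0.07, adjusted p = 0.000102). Rfc5 and Rfc4 followed at -0.64 and -0.61 and Rfc2 at -0.31. Rfc1, the large subunit, had a log2 difference of -0.22 and was not called (adjusted p = 0.134), but passed without vehicle plate 2 (-0.30, adjusted p = 0.0418), and its other probe sets gave 0.17 and -0.09. The clamp itself, Pcna, stood at 4690, 4745 and 4318 with rapamycin, against 6197, 5689 and 5745 with vehicle, and fell by 0.36 (SE 0.06, adjusted p = 0.001).

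The single-strand binding protein RPA fell in all 3 subunits, with Rpa2 at -0.51, Rpa1 at -0.43 and Rpa3 at -0.28. The last was lost without rapamycin plate 1 (-0.24) or plate 3 (-0.25), where it was under the fold threshold. Fen1, which trims Okazaki fragments, and Lig1, which joins them, fell by 0.54 and 0.56. Genes of the lagging strand were thus lower from primer to ligation.

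Nucleotide supply had the least even plates. Rrm1, the large subunit of ribonucleotide reductase, stood at 1043, 952 and 944 with rapamycin, against 1397, 1585 and 1426 with vehicle, and fell by 0.58 (SE 0.07, adjusted p = 0.000129). Dut, which removes dUTP, fell by 0.37 (SE 0.06, adjusted p = 0.00116), though its other probe set was not called (-0.21). Tk1, the thymidine kinase of S phase, stood at 1437, 1087 and 1326 with rapamycin, against 2248, 1475 and 2246 with vehicle.

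Plate 2 was thus the lowest for Tk1 in both treatments, yet every rapamycin plate lay below every vehicle plate. Tk1 fell by 0.62 (SE 0.15, adjusted p = 0.0129), a call that ended without vehicle plate 3 (-0.51, adjusted p = 0.0523), and its other probe sets fell by 0.94 and 0.53. The call of the brightest also ended with limma on only the 2 groups (adjusted p = 0.0987) and with the methods' t-test (adjusted p = 0.207). Tyms, thymidylate synthase, was low on the same plates, with 576, 407 and 496 with rapamycin and 525, 326 and 502 with vehicle. Its log2 difference was 0.14 with a 95% interval of -0.23 to 0.52, the widest of the 48 genes. It was -0.07 without vehicle plate 2, so no direction can be given for it.

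All 5 genes of chromatin assembly fell, and the step held the largest single change. Asf1b, a histone H3-H4 chaperone of proliferating cells, stood at 252, 271 and 239 with rapamycin, against 487, 449 and 489 with vehicle, and fell by 0.91 (SE 0.08, adjusted p = 2.52e-05). Uhrf1, which brings DNA methyltransferase to new strands, stood at 539, 700.5 and 582 with rapamycin, against 940.5, 1166 and 954 with vehicle, and fell by 0.75 (SE 0.11, adjusted p = 0.000603). Its client Dnmt1, the maintenance methyltransferase, fell by 0.34 (adjusted p = 0.0234), which did not hold without vehicle plate 2 (-0.25, adjusted p = 0.053), rapamycin plate 1 (-0.31) or rapamycin plate 3 (-0.29). The CAF-1 subunits Chaf1a and Chaf1b fell by 0.62 and 0.48.

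**Figure D2:**
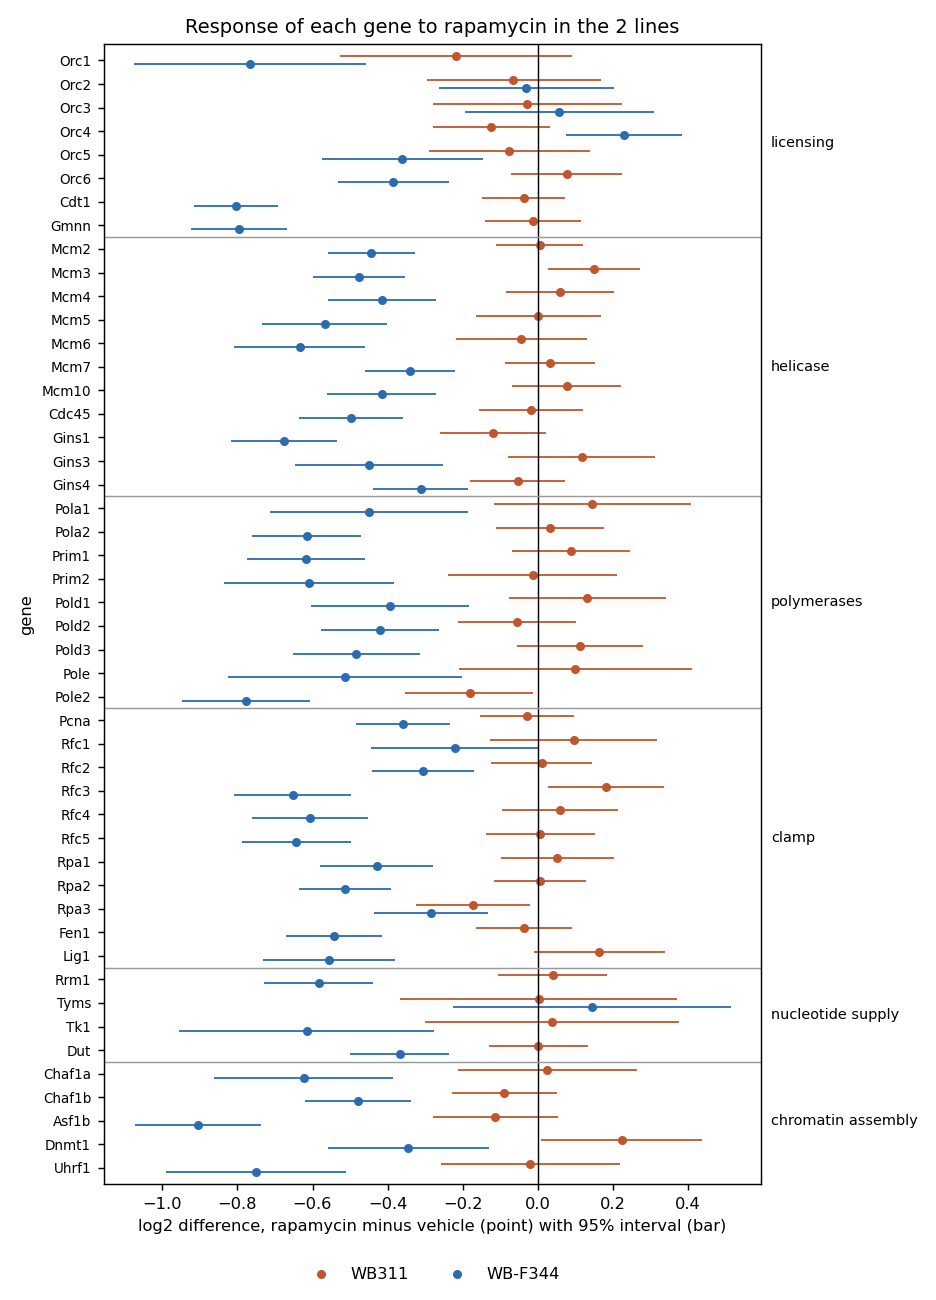
Log2 difference between rapamycin and vehicle for each of the 48 genes (down the page, by step) in WB311 (orange) and WB-F344 (blue), with bars for the 95% interval from limma. The WB311 points lie between -0.22 and 0.22, and the WB-F344 points between -0.91 and 0.23, with 45 of 48 below 0.

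In WB311 cells, none of the 48 genes was called with rapamycin in either direction (0 with limma, 0 with the methods' t-test), against 2.35% of all tested genes that fell and 1.91% that rose with limma, and 2.26% and 2.35% with the methods' t-test. All 48 differences lay between -0.22 and 0.22, under the fold threshold, so neither test could have called a gene. An unadjusted p under 0.05 was reached by 5 genes, and the smallest adjusted p was 0.179. The median log2 difference was 0.01, against 0.00 over all genes tested. Licensing, helicase, polymerase, clamp, nucleotide and chromatin genes had medians between -0.05 and 0.09.

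The main fit draws each gene's spread from the arrays of both lines. The median half-width of the 95% interval was therefore 0.15 in each line, which does not compare their precision. The SD over plates of the mean centred log2 level of the 48 genes was 0.008 with rapamycin and 0.025 with vehicle in WB311. In WB-F344 it was 0.051 with rapamycin and 0.035 with vehicle. Gmnn stood at 1502, 1434 and 1450 in WB311 with rapamycin, against 1451, 1471 and 1504 with vehicle, a log2 difference of -0.01 with an interval of -0.14 to 0.12. Mcm5 stood at 1138, 1143 and 1150 with rapamycin, against 1172, 1137 and 1121 with vehicle, a difference of 0.00 with an interval of -0.17 to 0.17. For both genes the interval leaves out a fall of the size seen in WB-F344.

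The extremes were Orc1 at -0.22 and Dnmt1 at 0.22. Orc1 stood at 287, 303 and 302 with rapamycin, against 357, 334 and 347 with vehicle, so its plates did not overlap, and its interval reached -0.53, the lowest bound among the 48 genes. Dnmt1 stood at 1387, 1474 and 1401 with rapamycin, against 1232, 1175 and 1245 with vehicle, and its interval reached 0.44. Over the 48 genes, the rapamycin plates lay wholly below the vehicle plates for 7 and wholly above for 8, against 20.2% and 21.3% of all tested genes. A missed threshold does not show that these genes stayed the same.

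The largest differences of each step were small in WB311. Of the licensing genes, Orc4 was at -0.12 and Orc6 at 0.08, of the helicase genes Mcm3 at 0.15, Gins1 at -0.12 and Gins3 at 0.12, and of the polymerase genes Pole2 at -0.18, Pola1 at 0.14 and Pold1 at 0.13. Of the clamp genes, Rfc3 was at 0.18, Rpa3 at -0.17 and Lig1 at 0.16, and of the chromatin genes Asf1b at -0.11 and Chaf1b at -0.09. Nucleotide supply had the values nearest to 0, with Rrm1 at 0.04, Tk1 at 0.04 and Tyms at 0.00.

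The response itself differed between the lines for most of the genes. The difference of the log2 responses (WB311 minus WB-F344) was called higher for 37 genes and lower for 1, against 8.66% and 3.87% of all genes tested. All 37 were among the 43 that fell in WB-F344. The median difference was 0.55, against 0.06 over all genes tested. The count was 40 higher and 1 lower without both WB-F344 plates numbered 2, against 15.4% and 6.97% of all tested genes there. Of the 38 calls, 27 held without any 1 plate. Those of Chaf1a, Chaf1b, Dnmt1, Dut, Orc4, Pcna, Pola1, Pold1, Pold2, Prim2 and Rfc2 did not, with adjusted p of 0.0502 to 0.116 where they were lost. Across the 48 genes, the response in WB311 did not follow that in WB-F344 (Pearson's r of 0.04 and Spearman's rho of 0.08, a description, since genes on the same arrays are not independent).

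Rfc3 differed most, at 736, 755 and 745 in WB311 with rapamycin, against 628, 649 and 698 with vehicle. This gave a log2 response of 0.18 in WB311 and of -0.65 in WB-F344, and a difference of 0.83 (SE 0.10, adjusted p = 0.00063 from limma's interaction contrast). Asf1b differed by 0.79, Gmnn by 0.78, Cdt1 by 0.77, Uhrf1 by 0.73, Lig1 by 0.72 and Prim1 by 0.71, with SE between 0.07 and 0.15. These 7 genes act at origins, at primer and fragment joining, at the clamp loader and on new chromatin. None of them belongs to the helicase or to nucleotide supply, where the largest differences by the brightest probe sets were 0.62 (Mcm3) and 0.65 (Tk1, not called). Other probe sets of Cdc45 and Mcm10 gave 0.71 each and another of Tk1 gave 0.91, all called. The separation of the steps thus holds only for the brightest probe sets.

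The 10 genes with no call in this contrast included 6 that fell in WB-F344, namely Orc1, Orc5, Gins4, Pole, Rpa3 and Tk1. Orc1 differed by 0.55 (SE 0.20, adjusted p = 0.111) and Pole by 0.61 (SE 0.20, adjusted p = 0.0787), and both passed without WB-F344 rapamycin plate 2, at 0.70 and 0.77. Of the others, Gins4 differed by 0.26 and Rfc1, which was not called in WB-F344, by 0.32. Tk1 differed by 0.65 (adjusted p = 0.085), passed without WB-F344 vehicle plate 2 (0.86), and was called for its other probe sets at 0.91 and 0.71. Rpa3 differed by 0.11 with an interval of -0.11 to 0.33, having log2 responses of -0.17 in WB311 and -0.28 in WB-F344. Orc4 was the gene called lower, at -0.35 (SE 0.10, adjusted p = 0.0475), a call lost without any 1 of 10 of the 12 plates. Its other probe set gave -0.08 and was not called. Same-numbered WB-F344 plates varied together, and with the plate number as a replicate block within each line limma also called Orc1 (adjusted p = 0.00284), Pole (adjusted p = 0.000987), Rfc1 (adjusted p = 0.0258) and Tk1 (adjusted p = 0.00381), which made 42 genes in all. Calls rose over the whole array too with that block, to 16.9% of all tested genes higher and 7.26% lower.

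With rapamycin on both lines, replication genes were higher in WB311 almost throughout. Of the 48 genes, 45 were higher and 0 lower, against 33.9% and 26.8% of all tested genes, and the median log2 difference (WB311 minus WB-F344) was 0.84, against 0.06 over all genes. With vehicle, 24 were higher and 1 lower, against 27.8% and 28.7%, with a median of 0.28 against 0.00. These comparisons share arrays with the responses above, since the difference with rapamycin is that with vehicle plus the difference of the responses, and so none of them is separate evidence for another. The WB311 plates lay wholly above the WB-F344 plates for 46 genes with rapamycin and for 35 with vehicle, against 41.8% and 34.2% of all tested genes, and wholly below for 0 and 1, against 33.5% and 35.2%. Without both WB-F344 plates numbered 2, 47 genes were higher and 0 lower with rapamycin, and 27 higher and 2 lower with vehicle. The shares of all tested genes there were 37.8% and 26.5% with rapamycin, and 32% and 28% with vehicle. The mesenchymal markers differed between the lines as given above. Other markers did too, with Tek, a receptor of endothelial cells, at 940 to 1191 in WB311 and 22.6 to 45.4 in WB-F344. Krt7, a keratin of biliary cells, stood at 68.6 to 156 in WB311 and 4637 to 6248 in WB-F344. Krt7 does not stand for its list, since 4 of 6 tested markers of biliary and progenitor cells were higher in WB311 with vehicle and 2 lower. With rapamycin, 2 of 5 tested were higher and 3 lower. The part of all these markers in these differences was not tested.

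**Figure D3:**
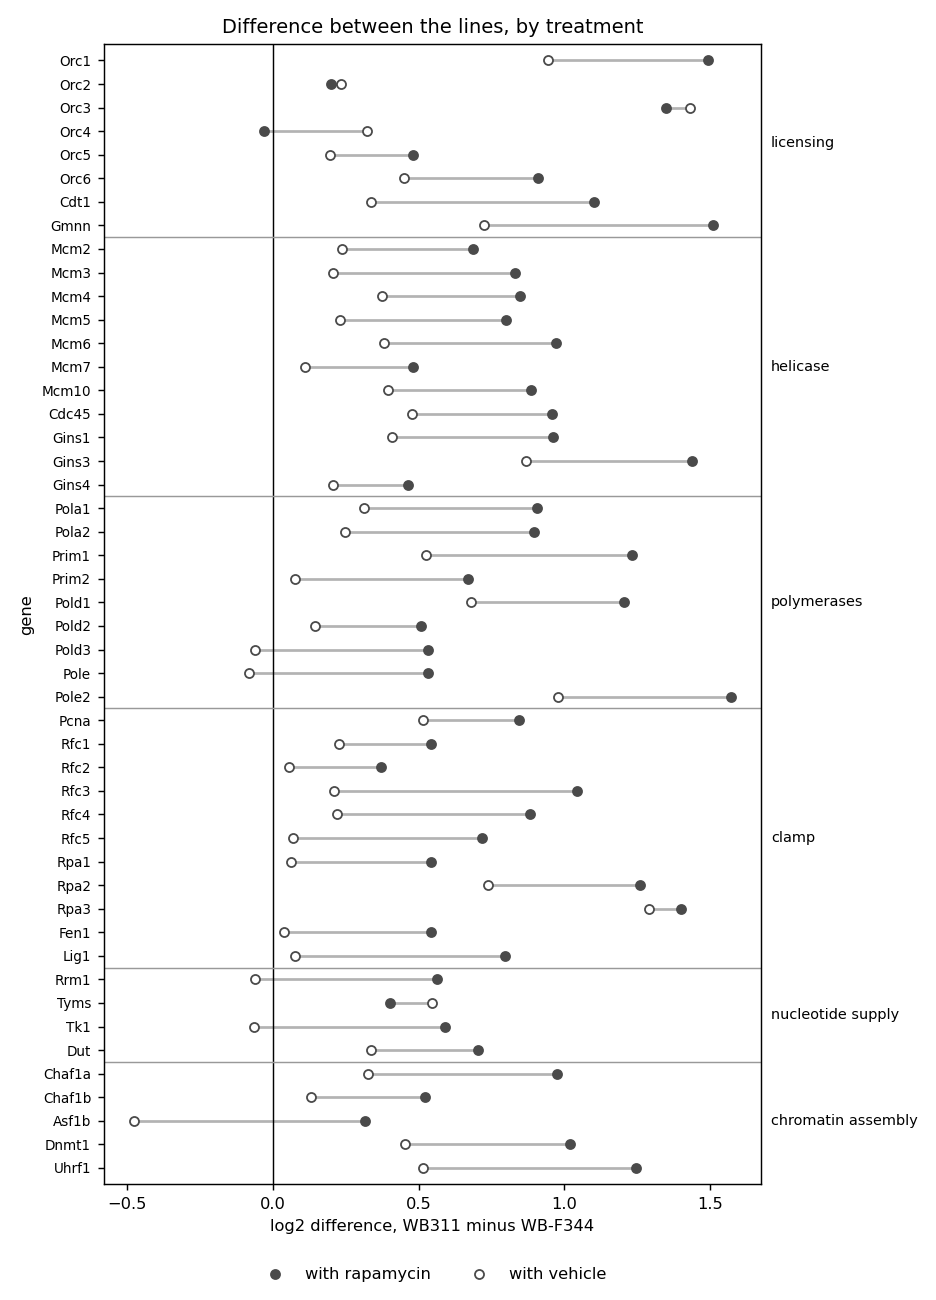
Log2 difference between the lines (WB311 minus WB-F344) for each of the 48 genes (down the page, by step) with rapamycin (filled) and with vehicle (open), joined by a grey line. With rapamycin the points run from -0.03 to 1.57, and with vehicle from -0.48 to 1.43.

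With vehicle, subunits of the same complex were not alike in their difference between the lines. Orc3 stood at 352, 328 and 364 in WB311, against 113, 159 and 118 in WB-F344, a log2 difference of 1.43 (SE 0.11, adjusted p = 9.76e-07). Orc1 was 0.94 higher, Gmnn 0.73, Orc6 0.45 and Orc4 0.32, whereas Orc2 (0.23) and Orc5 (0.20) were not called, Orc2 passing without WB-F344 vehicle plate 2 (0.34). Rpa3, the small RPA subunit, stood at 4264, 4337 and 4231 in WB311, against 1771, 1799 and 1679 in WB-F344, a difference of 1.29 (SE 0.07, adjusted p = 3.78e-08).

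Its partners differed in this, with Rpa2 0.74 higher and Rpa1 at 0.06 with an interval of -0.09 to 0.22. Among the polymerase genes, Pold1 was 0.68 and Prim1 0.53 higher. In polymerase ε, Pole2 was 0.98 higher while Pole was at -0.08 with an interval of -0.39 to 0.23. In the GINS complex, Gins3 was 0.87 higher, Gins1 0.41 higher and Gins4 not called at 0.21, and their partner Cdc45 was 0.48 higher. Of the ring, Mcm4 and Mcm6 were higher, at 0.37 and 0.38, and the others were not called, with Mcm2 at 0.24, Mcm5 at 0.23, Mcm3 at 0.21 and Mcm7 at 0.11, Mcm5 passing without WB-F344 vehicle plate 2 (0.31). Pola1 (0.31) and Chaf1a (0.33) were called higher but not without any 1 of 4 plates, WB311 vehicle plates 1 and 3 and WB-F344 vehicle plates 1 and 3 (0.23 to 0.30 for Pola1 and 0.28 to 0.32 for Chaf1a).

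Fen1, Lig1, Rrm1, Rfc2, Rfc5 and Prim2, which all fell with rapamycin in WB-F344, had differences between -0.06 and 0.08 with vehicle and were not called. Fen1 stood at 683, 645 and 643 in WB311, against 649, 613 and 661 in WB-F344, so the plates overlapped. With rapamycin it stood at 658, 617 and 647 in WB311, against 454.5, 446 and 419 in WB-F344, a difference of 0.54 (SE 0.06, adjusted p = 9.65e-06). Pcna, by contrast, at 8335, 8504 and 8328 in WB311, against 6197, 5689 and 5745 in WB-F344, was 0.51 higher (SE 0.06, adjusted p = 1.5e-05).

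In chromatin assembly, Uhrf1 was 0.52 and Dnmt1 0.45 higher with vehicle, and Chaf1b was not called at 0.13. In nucleotide supply, Tyms was 0.54 higher. Dut was 0.34 higher by its brightest probe set (adjusted p = 0.000546), but its other probe set gave -0.01 and was not called.

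Asf1b was the exception, lower in WB311 with vehicle, at 311, 353 and 362, against 487, 449 and 489 in WB-F344 (-0.48, SE 0.08, adjusted p = 0.000239). With rapamycin the order turned, at 300.3, 326 and 321 in WB311, against 252, 271 and 239 in WB-F344, a difference of 0.32 (SE 0.08, adjusted p = 0.00368). Tk1 depended on the probe set, since the brightest gave -0.06 with vehicle and was not called, while the others gave -0.71 and -0.53 and were called lower. Without WB-F344 vehicle plate 2 the brightest also passed, at -0.27 (adjusted p = 0.0444).

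With rapamycin the largest differences were those of Pole2 at 1.57 (SE 0.08), Gmnn at 1.51 (SE 0.06) and Orc1 at 1.49 (SE 0.14). Of the other steps, Gins3 (1.44), Mcm6 (0.97) and Gins1 (0.96) led the helicase genes, Rpa3 (1.40), Rpa2 (1.26) and Rfc3 (1.04) the clamp genes, and Uhrf1 (1.25), Dnmt1 (1.021) and Chaf1a (0.98) the chromatin genes. Orc3 was 1.35 higher among the licensing genes, and Prim1 and Pold1 were 1.23 and 1.21 higher among the polymerases. In nucleotide supply the largest were Dut at 0.70 (0.48 by its other probe set), Tk1 at 0.59 and Rrm1 at 0.56. The genes not called were Orc2 at 0.20, Orc4 at -0.03 and Tyms at 0.40, of which Orc2 (0.30) and Tyms (0.27) passed without both WB-F344 plates numbered 2. Orc4 depended on the probe set, since its other one was called higher in WB311, at 0.585 (adjusted p = 0.000744 from limma). Leaving out any 1 plate ended none of the 45 calls. That of Tk1 rested on its brightest probe set, since the others gave 0.20, under the fold threshold, and 0.18, where the intensity was too low for a test.

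**Figure D4:**
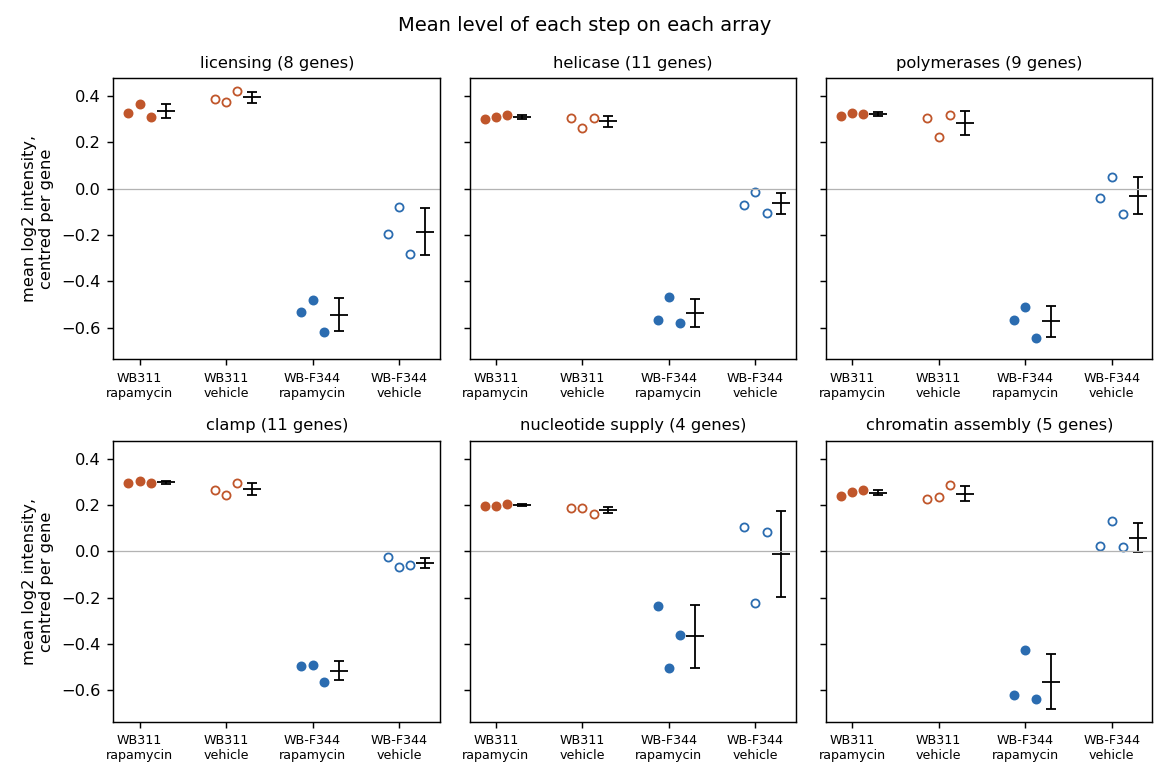
Mean log2 intensity over the genes of each step, each gene centred on its own mean, for every array (filled points with rapamycin, open with vehicle, orange WB311, blue WB-F344), with the mean and SD over 3 plates beside them. In each step the WB-F344 arrays with rapamycin lie lowest, and those of WB311 overlap or lie close together between treatments.

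Averaged over all 48 genes after centring each, the log2 level was 0.30 ± 0.01 in WB311 with rapamycin and 0.29 ± 0.03 with vehicle, and -0.53 ± 0.05 in WB-F344 with rapamycin and -0.06 ± 0.04 with vehicle (SD, n = 3 plates each). The order of the groups was the same in all steps but licensing, where WB311 with rapamycin (0.33 ± 0.03) lay below WB311 with vehicle (0.39 ± 0.02). In WB-F344 the plates of nucleotide supply lay furthest apart of the 6 steps, with -0.24, -0.51 and -0.36 in WB-F344 with rapamycin and 0.11, -0.22 and 0.09 with vehicle, while in WB311 they were even (SD 0.005 with rapamycin and 0.014 with vehicle).

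Other genes of the same pathway were taken as fixed lists. Of 19 tested fork and origin factors outside the 48 genes, 9 fell in WB-F344 with rapamycin and 1 rose, against 17.2% and 7.71% of all tested genes. Chtf18 and Dscc1, which belong to an alternative clamp loader, fell by 0.77 and 0.72, and Timeless and Clspn, which stabilize the fork, by 0.76 and 0.75. Chtf8, which forms this loader with them, scattered widely, at 584, 577 and 215 in WB-F344 with rapamycin, against 217, 225 and 245 with vehicle, and its log2 difference of 0.87 was not called (SE 0.49, adjusted p = 0.221), nor was the difference of its responses (-0.92, SE 0.69). It was likewise high on single WB311 plates, at 252, 507.5 and 243 with rapamycin and 671.5, 207 and 248 with vehicle.

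Dscc1 stood at 392.5, 399 and 326 in WB-F344 with rapamycin, against 589, 626 and 618 with vehicle, and its response differed between the lines by 0.91 (SE 0.11). Pold4, the small subunit of polymerase δ, went against its partners, at 136, 134 and 128 with rapamycin, against 89.3, 81.4 and 103 with vehicle, and rose by 0.54 (SE 0.09, adjusted p = 0.000936). With vehicle it averaged 91.3, so it was tested only through its level with rapamycin.

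Of 20 tested genes of nucleotide synthesis outside the 48, 6 fell and 0 rose in WB-F344, against the same 17.2% and 7.71%, and they belong to de novo synthesis. Dhodh, Cad and Umps, of the pyrimidine route, fell by 0.53, 0.35 and 0.31, and Pfas, Atic and Ppat, of the purine route, by 0.44, 0.37 and 0.30. The call of Pfas was lost without rapamycin plate 1 or 3 or vehicle plate 2 or 3 (-0.45 to -0.32). It was also lost with limma on only the 2 groups (adjusted p = 0.14) and with the methods' t-test (adjusted p = 0.251). For a difference of response between the lines, limma called 0 of 21 tested, with 7 at an unadjusted p under 0.05, against 8.66% of all tested genes called higher and 3.87% lower. The largest such differences were 0.53 for Pfas, which passed with the replicate block within lines (adjusted p = 0.00334) and without WB-F344 vehicle plate 1 or rapamycin plate 2 (0.64 and 0.66), and 0.39 for Samhd1, which degrades deoxynucleotides and passed without WB-F344 rapamycin plate 3 (0.51). Samhd1 averaged only 50.8 with rapamycin and 66.2 with vehicle in WB-F344, and was tested through its mean of 117 in WB311. Of 8 tested histone and methyl chaperones 3 fell, against 17.2%, with Nasp, a histone H3-H4 and H1 chaperone, at -0.48 and Hat1, which acetylates new histone H4, at -0.44. The response of Nasp differed between the lines by 0.40 and that of Ssrp1, a subunit of the FACT chaperone, by 0.34, which was not called but passed with the replicate block within lines (adjusted p = 0.013). In WB311, limma called 0 genes of each of these lists, with 2, 2 and 0 at an unadjusted p under 0.05. Their largest log2 differences there were 0.27 for Top2a, 0.21 for Atad5, -0.23 for Dhodh, 0.20 for Dctd, -0.24 for Slbp and -0.11 for Hat1, of which Top2a was called by the methods' t-test and when the WB311 arrays were fitted alone.

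Between the lines, 14 of 20 tested fork and origin factors were higher in WB311 with rapamycin and 1 lower, and 10 higher and 4 lower with vehicle, against 33.9% and 26.8% of all tested genes with rapamycin and 27.8% and 28.7% with vehicle. Dscc1 and Atad5, which unloads the clamp, were 1.58 and 1.15 higher with rapamycin, and with vehicle Atad5 was 0.77 higher while Rnaseh2c, a subunit of the nuclease that removes ribonucleotides from DNA, was lower in WB311 (-0.79). Of 21 genes of nucleotide synthesis, 9 were higher and 3 lower with rapamycin, and 3 higher and 4 lower with vehicle. Dtymk, thymidylate kinase, was 1.24 higher with rapamycin and 0.94 with vehicle, and Samhd1 1.22 and 0.82. Of 8 histone and methyl chaperones, 7 were higher with rapamycin and 6 with vehicle, with Nasp at 1.30 and 0.90 and Slbp, which binds histone mRNA, at 0.99 and 0.80.

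Among 11 tested genes of the E2F and RB family in WB-F344, E2f8 and E2f1 fell and Rb1 rose, shares close to the 17.2% and 7.71% of all tested genes, so the count is no result about the family. E2f8, a repressor of the family whose own gene E2F controls, stood at 98.0, 152 and 100.1 with rapamycin, against 160.5, 294 and 186 with vehicle, and fell by 0.85 (SE 0.22, adjusted p = 0.0143). Plate 2 was high in each treatment, and the call ended without rapamycin plate 1 (-0.74) or plate 3 (-0.76). It also ended with limma on only the 2 groups (adjusted p = 0.0971) and with the methods' t-test (adjusted p = 0.214). E2f1, an activator, stood at 169, 203 and 171 with rapamycin, against 216, 284 and 244 with vehicle, and fell by 0.45 (SE 0.10, adjusted p = 0.00801). Rb1, which restrains E2F, stood at 148, 164 and 162 with rapamycin, against 97.5, 123.3 and 106 with vehicle, and rose by 0.54 (SE 0.10, adjusted p = 0.00324). In WB311 their log2 differences were 0.06, 0.11 and -0.01, none of them called, and the largest of the family, 0.33 for E2f7 and 0.28 for Rbl1, were called only in some alternatives, among them a fit of the WB311 arrays alone. The response of E2f1 and Rb1 differed between the lines (0.57 and -0.55, adjusted p = 0.0319 and 0.039 from limma), as did that of Rbl1 (0.60, adjusted p = 0.0463), a call lost without any 1 of 9 of the 12 plates. That of E2f8 was not called (0.91, adjusted p = 0.0899), but was with the replicate block within lines (adjusted p = 0.00121) and without WB-F344 vehicle plate 1 (1.09) or rapamycin plate 2 (1.12). Between the lines, 9 of 12 tested were higher in WB311 and 1 lower with rapamycin, and 8 higher and 0 lower with vehicle, against 33.9% and 26.8%, and 27.8% and 28.7%, of all tested genes. E2f2, an activator, was 2.47 higher with rapamycin and 2.44 with vehicle, and Tfdp2, a partner of E2F proteins, 1.621 and 1.501.

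Since the genes moved together, the promoter windows of RefSeq (rat build GRCr8, from 250 bases before to 50 bases after an annotated start) were searched for the words TTTCCCGC, TTTCGCGC, TTTGCCGC and TTTGGCGC on both strands, the usual form of an E2F site. Of 45 genes of the list with a window, 21 held a word (46.7%), against 651 of all 27457 genes with a window (2.37%) and 333 of 6995 genes tested in WB-F344 (4.76%). The words were chosen with the genes known, and a match is a description of letters and not of binding. Helicase genes held one in 7 of 11 windows and licensing genes in 4 of 6, against 3 of 10 for the clamp and 1 of 4 for nucleotide supply.

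**Figure D5:**
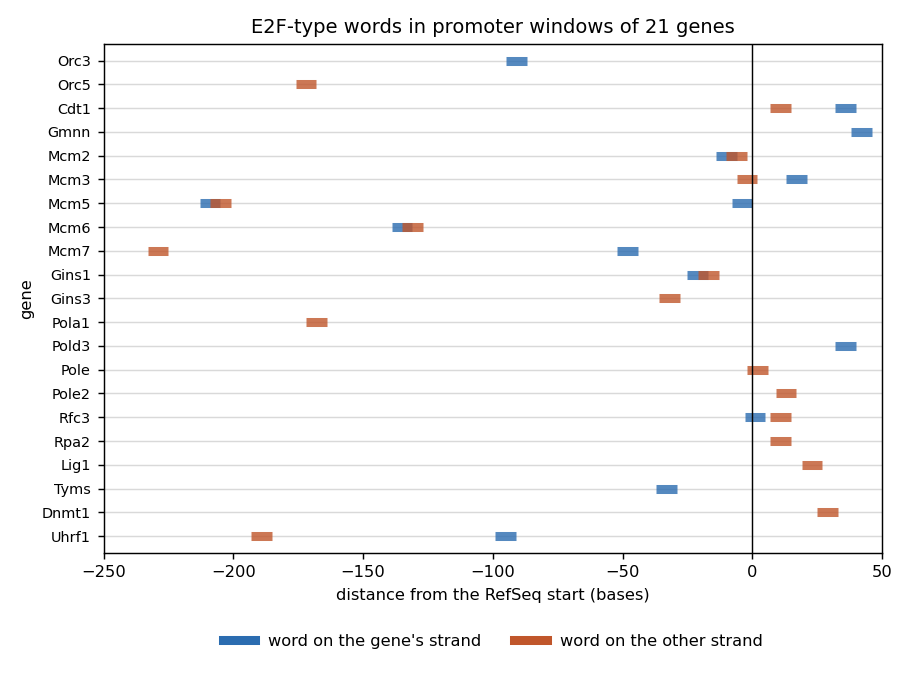
Position of E2F-type words in the windows of the 21 genes that hold one (down the page), as distance in bases from the RefSeq start (0), with words on the gene's own strand in blue and on the other strand in orange. Words lie on both sides of the start, and in Gins1, Mcm2, Mcm5 and Mcm6 a word on each strand overlaps.

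In Gins1, Mcm2, Mcm5 and Mcm6 the words on opposite strands share 4 bases. The stretches that hold these words in Gins1, Mcm2 and Mcm6 (chr3:160184855-160184919 on the plus strand, and chr4:122918095-122918148 and chr13:42404440-42404531 on the minus strand) are shown as examples of genes that fell. The stretches of Orc3 and Tyms (chr5:53977842-53977929 and chr9:120776084-120776160, both minus strand) are shown since these genes hold a word and were not called with rapamycin. The Mcm2 stretch and the Tyms word lie within the outer bounds of their genes, as does part of the Orc3 stretch, though not its word. These windows used another annotated start. Each stretch is written 5′ to 3′ on the strand of its gene, with the words in capitals.
Gins1: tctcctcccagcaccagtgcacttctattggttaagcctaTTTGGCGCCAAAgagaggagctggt
Mcm2: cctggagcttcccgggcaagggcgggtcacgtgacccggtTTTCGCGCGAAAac
Mcm6: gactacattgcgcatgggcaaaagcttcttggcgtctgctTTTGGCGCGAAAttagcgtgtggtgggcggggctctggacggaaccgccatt
Orc3: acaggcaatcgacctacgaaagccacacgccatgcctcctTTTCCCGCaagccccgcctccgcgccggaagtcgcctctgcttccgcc
Tyms: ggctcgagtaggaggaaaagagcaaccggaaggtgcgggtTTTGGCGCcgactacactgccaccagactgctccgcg

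The falls were of similar size in genes with and without a word. In WB-F344, 19 of the 21 genes with a word fell, and 20 of the 22 measured genes with a window and no word fell, with median log2 differences of -0.51 and -0.49. Asf1b, with the largest fall, held none of the words in its window, and Orc3 and Tyms held one without a called change.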

How the data were processed

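Total RNA from triplicate plates was hybridized by the authors to Affymetrix Rat Genome 230 2.0 arrays, and the deposited intensities are linear-scale values that the authors obtained by Robust Multiarray Average normalization. The software and its version are not given in the sources used here. Of 31099 probe sets, 57 were array controls and were left out. Of the remaining 31042, GEO's platform annotation named a single gene for 20826. The 436 with several genes were not used. The log2 of each intensity was computed here, and all 12 arrays were fitted as 4 groups with limma 3.58.1 in R 4.3.3, with moderated variances over the probe sets tested in each comparison. The thresholds follow the study's methods. Their t-test was run here on log2 values as an alternative and is called the methods' t-test. The study applied its fold change filter before the correction. Here the correction covered all tested probe sets and the filter came after it, so these counts are not those of the study's procedure. The difference of the responses is limma's interaction contrast. The fit was tested on simulated data. Precision is limited by 3 arrays per group.

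Named with values were, per comparison and step, the 3 genes with the largest difference, those not called where most of their step was, those called against the rest, and, of the other lists, the 2 genes with the largest difference. Others were named after their values were seen. The 48 genes, the lists, the words searched in RefSeq promoters (GRCr8) and the rule were chosen with earlier results of these data known. The alternatives were no filter or a filter of 200 on intensity, the fold change filter before the correction, only the groups compared, a mean-variance trend, array weights (statmod 1.5.0), median centring, cyclic loess, the median probe set of a gene, replicate blocks and leaving out each plate. Shorter E2F-type words and the CCAAT and TTTGAA words were also searched in the promoters, and the set reported was kept after these had been seen. Leaving out both WB-F344 plates numbered 2 was added after the data were seen. Same-numbered plates of WB-F344 deviated together (correlations of 0.561 to 0.871 over probe sets), but plates 1 and 3 also did so crosswise (0.581 and 0.605), and those of WB311 did not (-0.139 to -0.000258), so the fit without the block was kept and blocked values are given where they change a call.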

Additional observations from a re-analysis of the deposited data

Results flagged for a closer look

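These results were picked out because limma's test of the difference of the rapamycin responses between the lines (WB311 minus WB-F344, log2) passed the threshold. Among the 48 genes, 38 passed. Of the genes named by rule, the difference was 0.83 for Rfc3, 0.79 for Asf1b, 0.78 for Gmnn, 0.77 for Cdt1, 0.73 for Uhrf1, 0.72 for Lig1, 0.71 for Prim1 and 0.67 for Rfc4. It was 0.65 for Chaf1a and for Pola2, 0.62 for Mcm3 and for Rrm1, 0.59 for Mcm6, 0.57 for Mcm5 and 0.37 for Dut. Orc4 had the opposite sign, at -0.35, while its other probe set gave -0.08 and was not called. Outside the 48 genes, it was 0.91 for Dscc1, 0.60 for Rbl1, a relative of Rb1, and 0.40 for Nasp. The calls of Chaf1a, Dut, Orc4 and Rbl1 ended without 1 plate or another, and those of Dut and Nasp also with each array centred on its median.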

How the results depend on the processing

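The medians over the 48 genes kept their sign in every setting run, except that of the WB311 response, which lay between -0.016 and 0.019. In WB-F344 the median response was -0.426 after median centring and -0.406 after cyclic loess, the median difference of responses 0.475 and 0.480, and the median difference between the lines with rapamycin 0.779 and 0.749. The methods' t-test called 27 genes in WB-F344, against 43. Without any 1 plate, calls and medians ranged over 38 to 44 and -0.516 to -0.451 in WB-F344, 0 to 0 and 0.002 to 0.015 in WB311, 28 to 38 and 0.482 to 0.578 for the difference of responses, 23 to 29 and 0.252 to 0.307 between the lines with vehicle, and 45 to 46 and 0.803 to 0.859 with rapamycin.

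With a replicate block within each line 43 genes were called in WB-F344, 0 in WB311 and 42 for the difference of responses (34 with a replicate block over both lines), and neither block moved a count of these genes by over 1.5 times. Over all tested genes, the block within lines called 20.4% lower and 10.2% higher in WB-F344, and 3.74% and 5.25% in WB311. For the difference of responses it called 16.9% higher and 7.26% lower, and the block over both lines 7.84% and 3.59%. Apart from Dut between the lines with vehicle (0.337, called), signs turned only for differences that were not called. With rapamycin in WB-F344, Orc2 was at 0.024 (median centring), 0.044 (cyclic loess) and 0.010 (array weights), and without any 1 plate Orc2 ran from -0.133 to 0.074, Orc3 from -0.038 to 0.211 and Tyms from -0.073 to 0.276. In WB311, Tyms was at -0.020 (median centring) and from -0.010 to 0.021 without any 1 plate, and Tk1 at -0.032 (median probe set) and from -0.002 to 0.076. With vehicle, Dut was at -0.006 (median probe set) and Tk1 from -0.265 to 0.039 between the lines, and with rapamycin Orc4 from -0.068 to 0.011. Of the other values of named genes under the alternatives, 2751 kept their side of the threshold, 54 lost it and 75 gained it. The causes were not tested.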
